A study of Mus musculus with 15 samples.

Results

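The genes described here are 37 mouse ribosome biogenesis factors, chosen by gene symbol, out of 20101 genes with a symbol among the RefSeq transcripts counted in the study. All 37 passed the minimum of a mean of 10 counts per library and were among the 11747 features tested. The libraries are ribosome profiling libraries, in which the short mRNA fragments covered by translating ribosomes (footprints) are sequenced, so that the number of reads on a gene follows both its mRNA level and how densely that mRNA carries ribosomes. Footprint counts alone cannot tell these apart. The animals were wild-type male C57BL/6N mice aged 8 to 10 weeks that had been kept in 12 h light and 12 h dark and then moved to constant darkness. Livers were taken every 4 h from CT0, subjective dawn, through CT12, subjective dusk, to CT24, with 2 mice at each of 7 times and 14 libraries in all. All groups share strain, sex, genotype and constant darkness. They differ in circadian time and in how long the mice had been in darkness, which rose from CT0 to CT24. Whole liver holds several cell types, and fewer cells of a type and less RNA per cell cannot be told apart in it.

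A ribosome is built in the nucleolus. RNA polymerase I transcribes the ribosomal DNA into a long precursor, small nucleolar ribonucleoproteins (snoRNPs) modify that RNA at positions set by their guide RNAs, and assembly factors fold, cut and dress it with ribosomal proteins into a small and a large subunit. The liver is a tissue whose mass and ribosome content follow feeding, and many of these factors are known targets of the growth regulator MYC. The 37 genes were placed in 6 roles: 5 in RNA polymerase I transcription, 3 in box C/D snoRNPs (2'-O-methylation), 4 in box H/ACA snoRNPs (pseudouridylation), 5 multifunctional nucleolar proteins, 10 in large subunit assembly and 10 in small subunit assembly.

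The sequence CACGTG, the canonical E-box that both the clock factors CLOCK and BMAL1 and the MYC family bind, was searched in the RefSeq promoter windows of GRCm38.p6, which run from 250 bases before to 50 bases after each gene's start. It reads the same on both strands. A window was given for 33 of the 37 genes, and 7 of these (21.2%) held the sequence, beside 11.8% of 9375 tested genes and 8.09% of all 27025 genes with a window. The genes were Nle1, Nop2, Pes1, Rrn3, Tsr1, Utp20 and Wdr43. Rrn3, which had the lowest p in the cosine fit below, was the member with a pair of sites. The 3 sites that lie upstream of a start are printed here with CACGTG in capitals, each on its gene's plus strand.
Rrn3, chr16:13780472-13780501, CACGTG starting at -215: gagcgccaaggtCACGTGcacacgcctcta
Rrn3, chr16:13780639-13780668, CACGTG starting at -48: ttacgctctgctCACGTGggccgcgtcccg
Nop2, chr6:125131811-125131840, CACGTG starting at -60: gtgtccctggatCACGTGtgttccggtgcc
In Pes1, Wdr43, Nle1, Tsr1 and Utp20 the sequence starts 3, 18, 24, 25 and 38 bases into the transcript, counting the start as base 1. A match is a description of the letters only. Of the 7 genes, 1 (Rrn3) passed the cosine test below, which 10.6% of all features did.

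A further feature of these genes that the choice by symbol did not use is what their introns hold. RefSeq places at least 1 snoRNA gene inside 7 of the 37 genes (18.9%), against 1.5% of 11614 tested genes with an annotation. The hosts are Nop56 with 5 nested snoRNA genes, Nop58 with 4, Gnl3 and Wdr43 with 3 each, Ncl with 2, and Dkc1 and Tsr1 with 1 each. The core box C/D proteins Nop56 and Nop58 thus lie around genes of the RNA class that their proteins bind, among them Snord57 and Snord110 in Nop56 and Snord11 and Snord70 in Nop58. The snoRNAs themselves were not measured here, since footprint counts were given for mRNAs. The median difference between subjective night and day, described below, was 0.31 on the log2 scale over the 7 hosts and 0.26 over the other 30 genes.

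The 14 libraries held from 40593197 to 90458783 counts over all transcripts and from 33081381 to 75362755 with 1 transcript kept per gene, of which 13641 to 27417 fell on the 37 genes. Between 35.3% and 57.6% of the counts of a library belonged to 16 Mup genes, the major urinary proteins. Counts were therefore scaled with TMM factors (a scaling on the bulk of genes), which ranged from 0.733 to 1.49, and are given as TMM-scaled CPM (counts per 1000000 counts). All nonzero region counts of CT16 replicate 2 were even (100%), whereas between 45.7% and 50.0% were so elsewhere. The clock genes Arntl, Per2, Nr1d1 and Dbp peaked at 23.0, 16.5, 8.54 and 11.2 h and all 4 passed the cosine test. Hepatocyte markers summed to between 41468 and 57258 CPM in every library. Markers of pancreatic acinar cells summed to 2939 CPM in CT20 replicate 2 and to between 2.97 and 58.0 CPM in the others, so the counts for night and day below are also given without it.

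Levels were compared between genes by CDS density, the CDS counts per kilobase and 1000000 TMM-scaled counts, over 14 libraries. The members' median was 3.75, beside 2.90 for all features tested, and 23 of the 37 genes lay above the latter value. Nop10, a small core protein of the box H/ACA particle, had the highest density at 123 ± 13.4 (SD, n = 14), on a CDS of only 197 nt by the lengths in the files. Nop16, a large subunit assembly factor, followed at 19.7 ± 5.05, and the RNA-binding nucleolar proteins Ncl (nucleolin) and Npm1 (nucleophosmin) at 18.0 ± 4.57 and 14.3 ± 4.52. At the other end were Nle1, a factor of late large subunit assembly, at 0.816 ± 0.322 and Noc3l at 0.947 ± 0.249. The role with the lowest median was small subunit assembly at 2.05, with a range of 1.09 for Utp20 to 3.84 for Noc4l. Polymerase I genes had a median of 4.74 and box C/D genes of 4.28, with the 3 core proteins Nop56 (4.55 ± 0.794), Nop58 (4.28 ± 1.28) and Fbl (3.81 ± 0.920) within 1 SD of one another. The members of the H/ACA particle spread widely, from 2.27 ± 0.766 for Gar1 and 2.71 ± 0.611 for Dkc1 to 14.1 ± 2.57 for Nhp2 and the value of Nop10. The coefficient of variation over the 14 libraries ran from 10.8% for Bop1 to 39.5% for Nle1, the gene with the fewest counts (a mean of 60.6 per library).

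**Figure D1:**
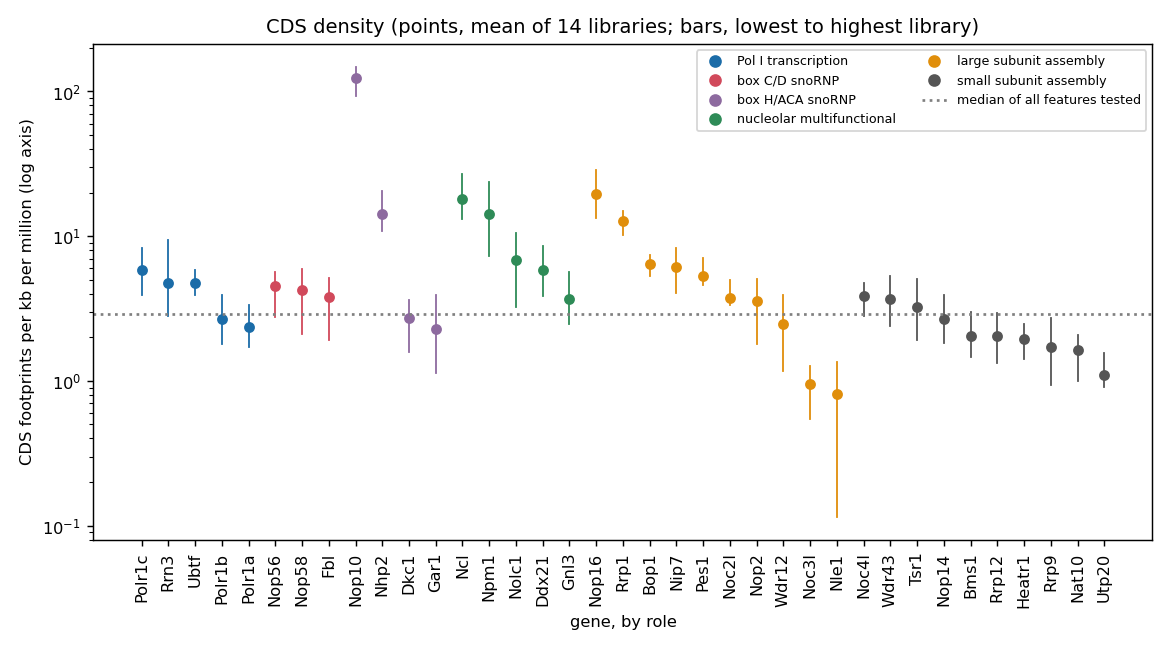
CDS density (CDS counts per kilobase and 1000000 TMM-scaled counts, log axis) of the 37 genes grouped and coloured by role; points are means of 14 libraries, bars run from the lowest to the highest library, and the dotted line is the median of all features tested (2.90). Nop10 stands highest at 123, and 7 of the 10 small subunit genes lie below the dotted line.

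Summed over the 37 genes and scaled with TMM, footprints were lowest at CT4 and CT8 and highest from dusk into the night. At CT0 the sum was 351 ± 38.4 CPM (SD, n = 2), and it was lower at CT4, 305 ± 17.2, and CT8, 332 ± 20.3. The highest mean, 405 ± 2.56, came at CT12, and later values were 399.9 ± 21.5 for CT16, 385 ± 9.58 for CT20 and 375 ± 7.63 for CT24. The sum weighs genes by their counts. Ncl alone had a mean of 59.1 CPM at CT12 and 49.1 CPM at CT16, a larger gap than that between the 2 sums. The 4 libraries of CT4 and CT8 held 293 to 346 CPM and the 4 of CT16 and CT20 378 to 415 CPM, without overlap. Scaled by the library total, the lowest means were again those of CT8 (275 ± 18.99) and CT4 (299 ± 36.3), but the highest was that of CT0 (488 ± 106), and CT12 (330 ± 48.1) lay below CT16 (455 ± 83.2), CT20 (346 ± 42.1) and CT24 (411 ± 29.3). Day (262 to 325 CPM) and night (316 to 514 CPM) then overlapped. Of the 37 genes, 17 (45.9%) had their lowest time mean at CT4 and 7 at CT8, whereas 11.9% and 11.4% of all features had theirs there. The highest mean fell at CT12 for 10 genes (27.0%, beside 18.1% of all features), at CT16 for 9 (24.3%, beside 14.9%), at CT24 for 7 (18.9%, beside 11.1%), at CT20 and CT0 for 5 each (13.5%, beside 14.4% and 15.7%), at CT4 for 1 and at CT8 for 0 (beside 12.4% and 13.5%). In CT4 replicate 1 only 4 of the 37 genes were above their own mean over the libraries, against 29 in CT16 replicate 2. The members' median distance between the 2 mice of a time was 0.21 on the log2 scale, and 0.25 for all features.

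**Figure D2:**
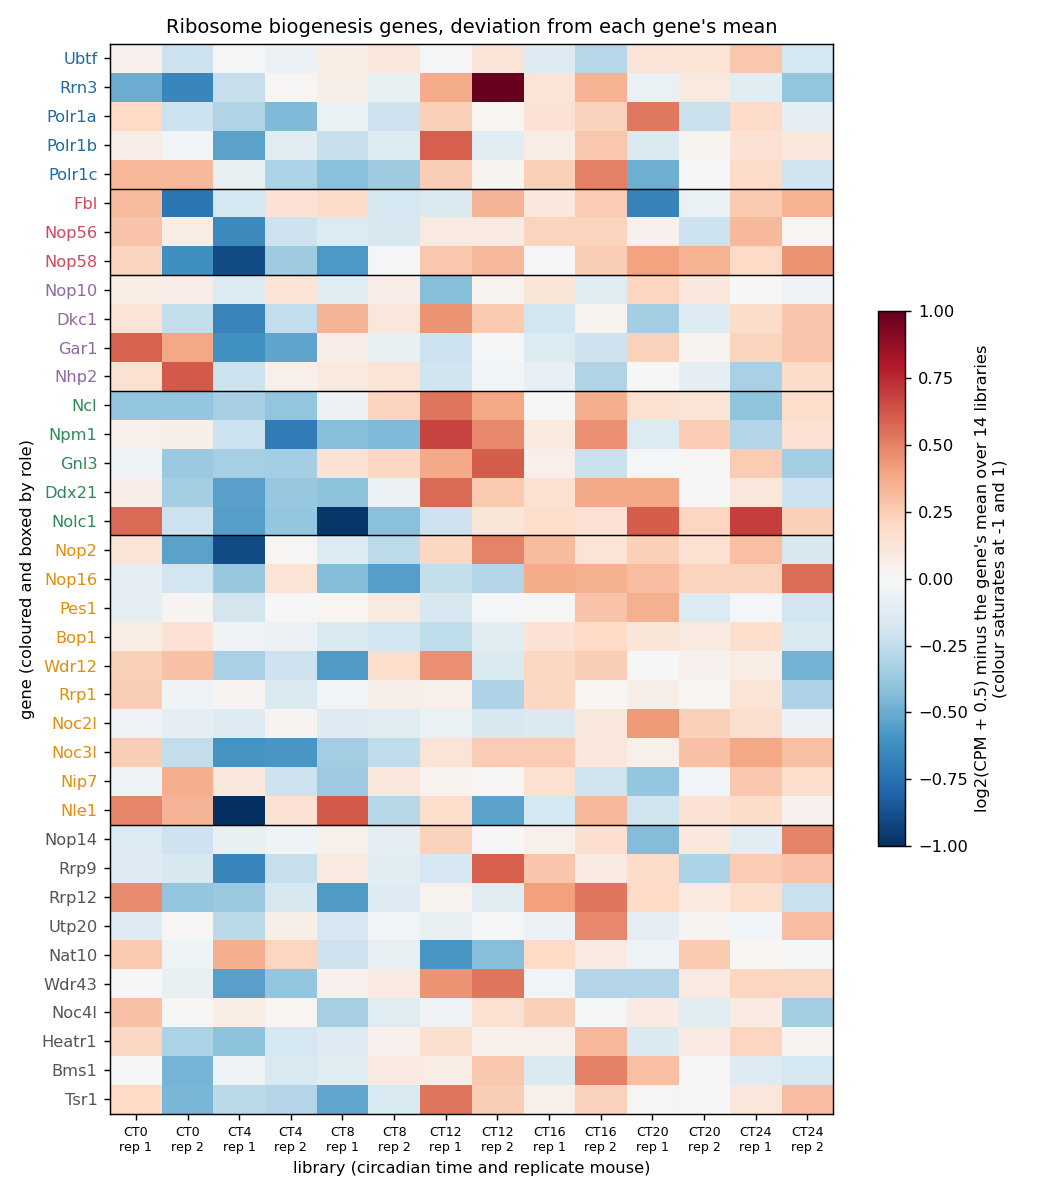
Deviation of each of the 37 genes (rows, coloured and boxed by role) from its own mean of log2(CPM + 0.5) over the 14 libraries (columns, by circadian time and replicate mouse); red is above and blue below the mean. The 4 columns of CT4 and CT8 are mostly blue, with 4, 12, 12 and 13 genes above their mean, and Rrn3 is darkest red in CT12 replicate 2.

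A 24 h cosine was fitted to each gene over all 14 libraries with edgeR's quasi-likelihood test, and p-values were adjusted over all 11747 features. The cosine passed an adjusted p of 0.05 in 10.6% of all features and in 6 of the 37 genes: Rrn3, Ncl, Npm1, Ddx21, Nolc1 and Nop16. Their fitted peaks all lay between 12.9 h and 19.8 h, a window from 12 h to 21 h that holds 45.6% of all features that passed. Over all 37 genes, called or not, 28 (75.7%) had a fitted peak in that window, beside 35.9% of all features. The 2 series of replicates, fitted apart, gave phases within 4 h of each other in 27 of the 37 genes (73.0%), against 52.9% of all features. With counts scaled by the library total in place of TMM, 2 genes passed (Nop16 and Nolc1), beside 7.63% of all features. Without CT20 replicate 2, 6 genes passed (10.2% of all features), with Polr1a in place of Npm1. The rank test of the JTK_CYCLE type, on TMM-scaled CPM and with the same adjustment, called 1 (Rrn3) and 3.3% of all features.

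Subjective night (CT16 and CT20) was compared with subjective day (CT4 and CT8) in a model with 7 time groups. Either direction passed in 4.45% of features, 3.2% higher and 1.25% lower at night. Of the 37 genes, 4 rose at night: Nolc1, Npm1, Nop16 and Ddx21. None fell, and 0 of the 37 were lower at night by DESeq2 or at an unadjusted p under 0.05, whereas 14 of the 37 (37.8%) were higher at an unadjusted p under 0.05, beside 16% of all features in either direction. The estimate was above 0 in 32 of the 37 genes (86.5%), beside 48.6% of all features, and the members' median was 0.26 on the log2 scale, beside -0.01 over all features. With total-count scaling, which moved the median of all features to 0.16, the estimate was above 0 in all 37, beside 68.8% of all features. In 9 genes (24.3%) the 4 night libraries all lay above the 4 day libraries, beside 5.07% of all features, and in 0 of the 37 all below, beside 4.33%. These 9 were Npm1, Ddx21, Nolc1, Nop2, Nop16, Bop1, Noc3l, Rrp12 and Tsr1. The count of genes that passed fell to 1 without CT4 replicate 1 or without CT8 replicate 1 and to 2 without CT16 replicate 2, where the share of all features called also fell, to 2.78%, 2.53% and 3.1%. It stayed at 4 without CT20 replicate 2, the library with acinar markers, where Polr1a passed and Npm1 did not (2.74% of all features were called higher). There the estimate was above 0 in 29 members (45.7% of all features), with a median of 0.27 (all features -0.04), and 11 had no overlap with night above day (7.14%). With the leading letters of the description label as a block, 2 genes passed (Nop16 and Nolc1), beside 3.36% of all features in either direction. Markers of stellate cells summed to 154 to 184 CPM in the 4 day libraries and to 117 to 144 CPM in the 4 night libraries, also without overlap, and their part in the result was not tested.

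**Figure D3:**
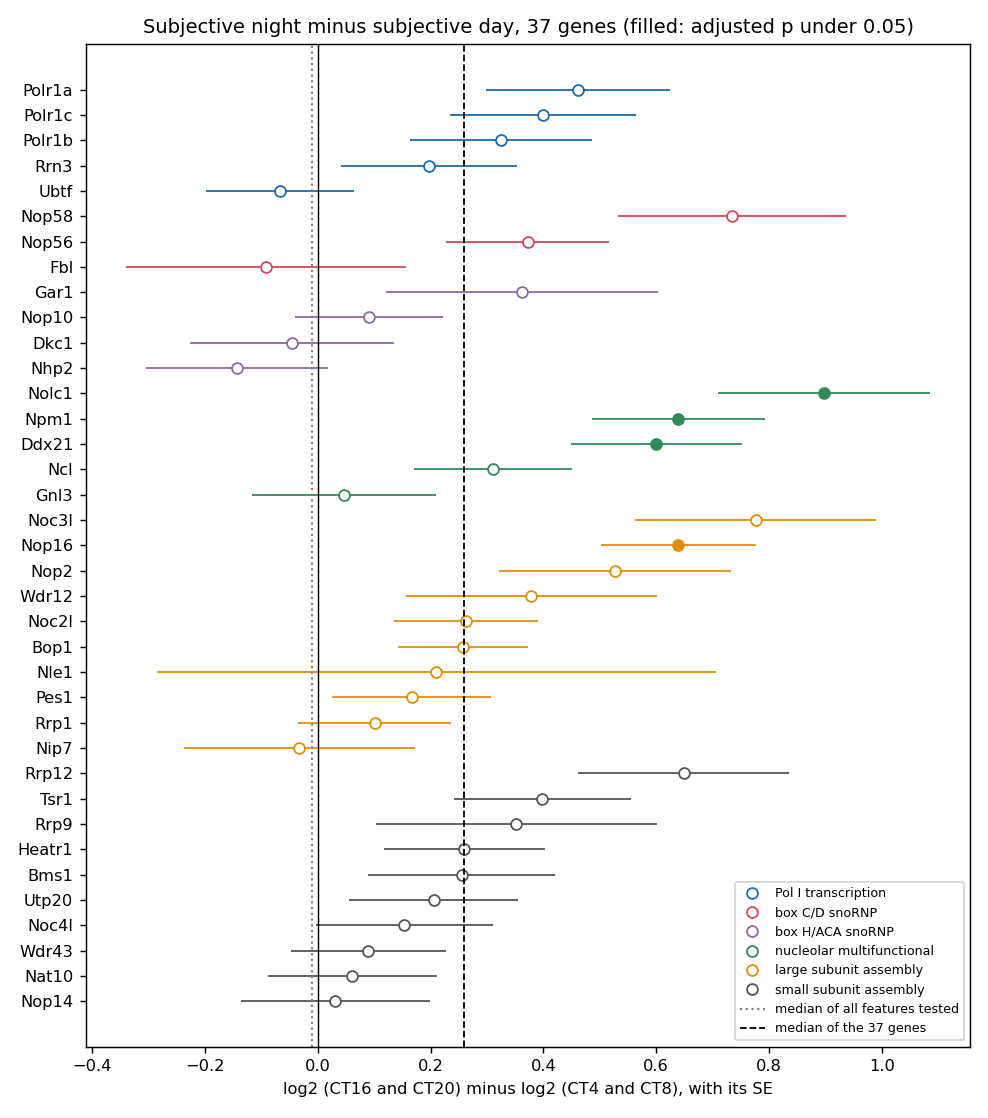
Log2 difference of subjective night (CT16 and CT20) minus subjective day (CT4 and CT8) for the 37 genes, by role, with the SE of the edgeR estimate; filled points passed an adjusted p of 0.05. The dashed line is the median of the 37 genes (0.26), the dotted line that of all features tested (-0.01), and 32 points lie right of 0.

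The multifunctional nucleolar proteins held 4 of the 6 genes that passed the cosine, and 5 of 5 had a night estimate above 0 (median 0.60 on the log2 scale), beside 10.6% and 48.6% of all features. The roles were set with earlier results of these data known, so these counts describe the grouping and do not test it. At an unadjusted p under 0.05 there were 5 for the cosine (24.6% of all features) and 4 for the night comparison (16%), and DESeq2 called 4 (14.6%) and 3 (6.89%). Ncl, nucleolin, binds precursor rRNA and is the member with the most footprints by count. It had 32.4 and 32.5 CPM at CT0, 33.8 and 32.4 at CT4, 40.9 and 49.8 at CT8, 62.2 and 56.0 at CT12, 43.2 and 55.0 at CT16, 47.4 and 46.7 at CT20 and 32.2 and 48.3 at CT24. The CT12 pair was thus above every other library, and the lowest values were shared by CT0, CT4 and 1 mouse of CT24. The fitted peak was at 14.01 h (SE 0.876), with 0.72 (log2) from peak to trough (adjusted p = 0.0127), and the call held without any 1 of the 14 libraries (adjusted p up to 0.0428), but not with total-count scaling (adjusted p = 0.257) or without the CT0, CT4 or CT12 pair (0.0642, 0.0698 and 0.137). The night estimate was 0.31 ± 0.14 (SE, adjusted p = 0.283).

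Npm1, nucleophosmin, is a chaperone of the granular layer of the nucleolus. Its values were 15.0 and 15.2 CPM at CT0, 12.4 and 8.76 at CT4, 10.7 and 10.6 at CT8, 23.5 and 20.5 at CT12, 15.5 and 20.1 at CT16, 13.2 and 17.4 at CT20 and 11.7 and 16.1 at CT24. The CT12 pair was highest, and the 4 day libraries lay below the 4 night libraries, with the closest at 12.4 and 13.2 CPM. The night difference was 0.64 ± 0.15 (SE, adjusted p = 0.0241), a fold of 1.56, and the cosine peaked at 16.1 h with 0.84 from peak to trough (adjusted p = 0.0436). Npm1 is the least stable of the genes that passed the cosine. That call was lost without either library of CT4, CT8 or CT12, CT16 replicate 2, CT20 replicate 2 or CT24 replicate 1 (adjusted p from 0.0606 to 0.128), and the night call without CT4 replicate 2, either library of CT8, CT16 replicate 2 or CT20 replicate 2 (adjusted p from 0.0818 to 0.146). Both calls were also lost with the description label as a block (adjusted p = 0.0768 and 0.0526) and with total-count scaling (0.168 and 0.0569), and the cosine call with upper quartile scaling (0.0557), CDS counts alone (0.0526) and the replicate block (0.0532), and without the pair of CT4, CT8, CT12, CT16 or CT24 (0.0551 to 0.213). Npm1 is also known to have many near-identical processed copies in the genome. Per the study's methods, density profiles were built from reads with a single alignment, so reads shared with a copy may be missing from its counts.

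Ddx21, an RNA helicase that acts in polymerase I transcription and rRNA processing, had 15.6 and 11.7 CPM at CT0, 10.0 and 11.3 at CT4, 11.1 and 14.3 at CT8, 22.3 and 17.9 at CT12, 16.6 and 19.5 at CT16, 19.5 and 14.9 at CT20 and 16.2 and 12.8 at CT24. CT4 had the lowest mean and CT12 the highest, and day and night did not overlap (14.3 and 14.9 CPM at the closest). It peaked at 15.98 h (SE 0.812) with 0.80 from peak to trough (adjusted p = 0.0141), a call that held without any 1 of the 14 libraries (up to 0.0482) but not with total-count scaling (adjusted p = 0.111) or without the CT4 pair (0.138). The night difference was 0.60 ± 0.15 (adjusted p = 0.0316), and that call was lost without either library of CT4, CT8 replicate 1, CT16 replicate 2 or CT20 replicate 1 (adjusted p from 0.0883 to 0.184), and with the description label as a block (adjusted p = 0.0602).

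Nolc1, a phosphoprotein that escorts snoRNPs between nucleolus and Cajal body, had the largest fitted amplitude and the largest night estimate of the 37 genes. Its values were 20.8 and 11.9 CPM at CT0, 9.33 and 10.5 at CT4, 6.81 and 10.2 at CT8, 12.0 and 15.2 at CT12, 15.8 and 15.4 at CT16, 21.4 and 16.2 at CT20 and 22.7 and 16.4 at CT24. It was lowest in the day and highest from CT20 to CT24, later than the other nucleolar proteins, and its mice at CT0 were far apart. The cosine peaked at 19.8 h (SE 0.785) with 1.15 from peak to trough, a fold of 2.22 (adjusted p = 0.00812), and held without any 1 of the 14 libraries (up to 0.0454) and with total-count scaling (adjusted p = 0.00373), but not without the CT8 pair (0.121). The night difference was 0.90 ± 0.19 (adjusted p = 0.0101), a fold of 1.86, lost without CT4 replicate 1 or CT8 replicate 1 (adjusted p from 0.0560 to 0.0773). The last gene of this role, Gnl3 (nucleostemin, a nucleolar GTP-binding protein), had a night estimate of 0.05 ± 0.16 and a cosine adjusted p of 0.145.

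**Figure D4:**
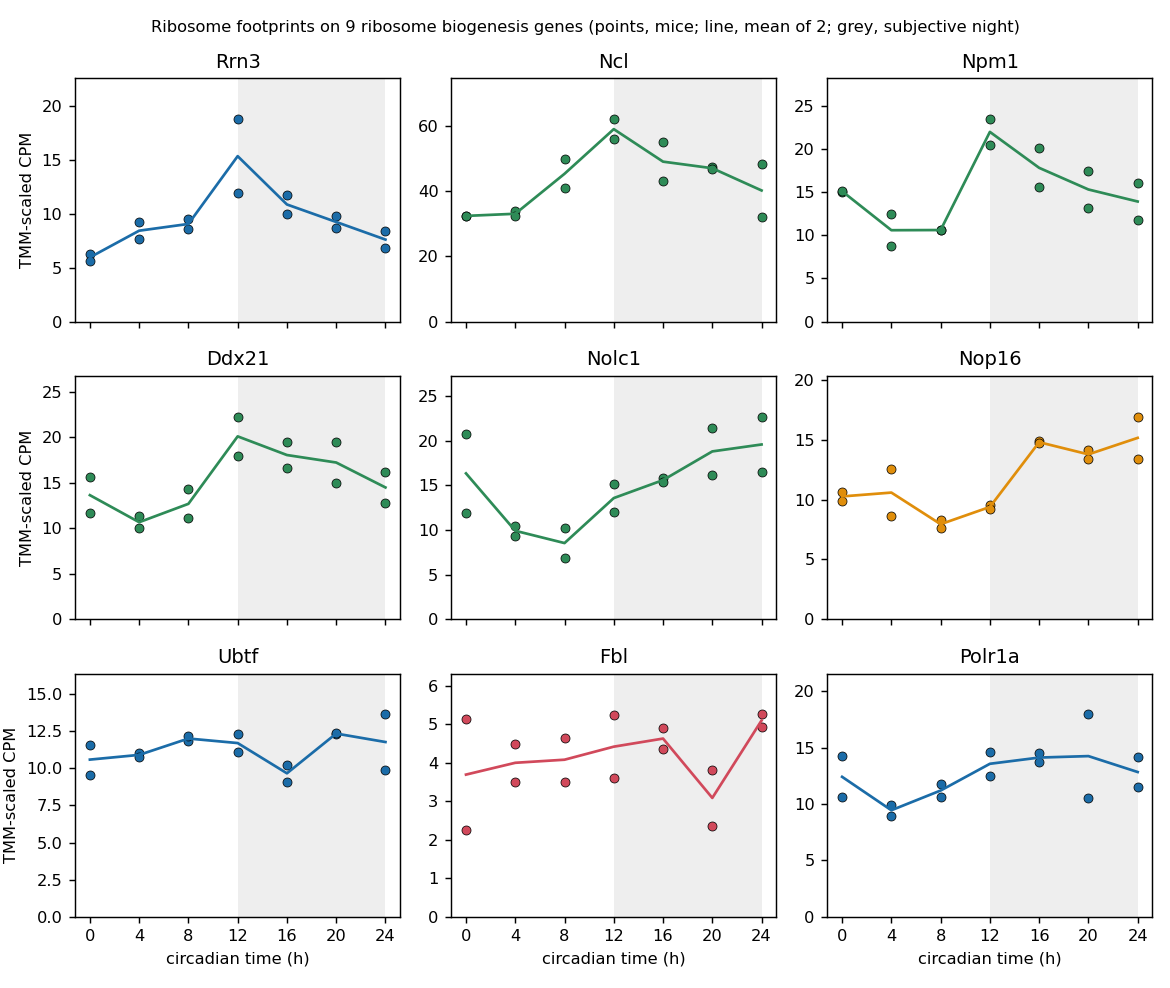
TMM-scaled CPM of 9 genes against circadian time; points are single mice, lines join the means of 2, the grey area is subjective night and each vertical axis starts at 0. Ncl, Npm1, Ddx21 and Rrn3 are highest at CT12, Nolc1 and Nop16 at CT24, and Ubtf runs level between 9.11 and 13.6 CPM.

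In polymerase I transcription, 1 of 5 genes passed the cosine and 0 passed the night comparison (0 by DESeq2, 2 at an unadjusted p under 0.05), although 4 of 5 estimates were above 0 (median 0.33). By edgeR, 10.6% of all features passed the cosine and 4.45% the night comparison in either direction, and 48.6% were above 0. Over all features, an unadjusted p under 0.05 was reached in 24.6% for the cosine and 16% for the night comparison, and DESeq2 called 14.6% and 6.89%, the shares against which such counts are to be read in each role. Rrn3, also called TIF-IA, recruits polymerase I to the ribosomal DNA promoter and is the regulated step of initiation. It had 6.31 and 5.61 CPM at CT0, 7.67 and 9.19 at CT4, 9.49 and 8.63 at CT8, 11.9 and 18.8 at CT12, 9.98 and 11.7 at CT16, 8.69 and 9.79 at CT20 and 8.42 and 6.80 at CT24. Both CT12 libraries lay above all others, although those mice were well apart, and CT0 was lowest. The cosine peaked at 12.9 h (SE 0.859) with 0.96 from peak to trough, a fold of 1.95 (adjusted p = 0.00402). The series of the 2 replicates peaked at 12.9 and 13.0 h, and the call held without any 1 of the 14 libraries (up to 0.0231) but not without the CT12 pair (adjusted p = 0.0787, with 0.71 from peak to trough). Since dusk lies between the night and day windows, the night estimate was only 0.20 ± 0.16 (adjusted p = 0.611). With total-count scaling the cosine of Rrn3 did not pass (adjusted p = 0.168, peak at 14.8 h).

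Ubtf, the upstream binding factor that keeps ribosomal DNA in an open form, had the smallest fitted cosine of the 37 genes. It had 11.6 and 9.58 CPM at CT0, 11.1 and 10.7 at CT4, 11.8 and 12.2 at CT8, 11.1 and 12.3 at CT12, 10.2 and 9.11 at CT16, 12.3 and 12.4 at CT20 and 13.6 and 9.89 at CT24. All 14 values lay between 9.11 and 13.6 CPM, with the CT16 mean lowest and the CT24 mice well apart. The peak-to-trough difference was 0.07 (adjusted p = 0.951) and the night estimate was -0.07 ± 0.13. Polr1a, the largest catalytic subunit of the polymerase, had 14.2 and 10.6 CPM at CT0, 9.94 and 8.94 at CT4, 11.8 and 10.6 at CT8, 14.6 and 12.5 at CT12, 13.7 and 14.5 at CT16, 18.0 and 10.5 at CT20 and 14.2 and 11.5 at CT24. Day and night overlapped through CT20 replicate 2 alone, the library with acinar markers. The night estimate was 0.46 ± 0.16 (adjusted p = 0.151) and the cosine gave 0.54 at 17.3 h (adjusted p = 0.139), whereas without CT20 replicate 2 both passed (adjusted p = 0.0275 and 0.0499). The other catalytic subunit Polr1b and the subunit Polr1c, which polymerase III shares, had night estimates of 0.33 ± 0.16 and 0.40 ± 0.16, and neither passed.

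Of the box C/D proteins, 0 of 3 passed either comparison by edgeR, beside 10.6% (cosine) and 4.45% (night) of all features. At an unadjusted p under 0.05 there was 1 for the cosine (24.6% of all features) and 2 for the night comparison (16%), and DESeq2 called 0 (14.6%) and 1 (6.89%). Nop58, a core scaffold protein, had 8.55 and 4.57 CPM at CT0, 3.67 and 5.57 at CT4, 4.71 and 7.17 at CT8, 8.86 and 9.21 at CT12, 7.15 and 8.68 at CT16, 9.73 and 9.38 at CT20 and 8.39 and 10.1 at CT24. Its night estimate was 0.73 ± 0.20 (adjusted p = 0.0512), and day and night met at 7.17 CPM in CT8 replicate 2 and 7.15 in CT16 replicate 1. With total-count scaling it passed (0.92, adjusted p = 0.0241), and with the DESeq2 test also (adjusted p = 0.0141). Its partner Nop56 had 0.37 ± 0.14 (adjusted p = 0.201). Fbl, fibrillarin, the methyltransferase of the particle, had 5.14 and 2.25 CPM at CT0, 3.50 and 4.49 at CT4, 4.65 and 3.51 at CT8, 3.59 and 5.24 at CT12, 4.36 and 4.89 at CT16, 2.35 and 3.82 at CT20 and 4.93 and 5.26 at CT24. Its mice differed within a time by as much as the times differed, and the night estimate was -0.09 ± 0.25 with a cosine adjusted p of 0.949.

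The box H/ACA proteins had the smallest median night estimate of the 6 roles, 0.02 (-0.01 without CT20 replicate 2), with 2 of 4 above 0 (48.6% of all features). None of the 4 passed either test by edgeR or DESeq2, and 0 reached an unadjusted p of 0.05. Nop10, the member with the most footprints per length, had a night estimate of 0.09 ± 0.13 and a peak-to-trough difference of 0.20 (cosine adjusted p = 0.586). Dkc1 (dyskerin, the pseudouridine synthase) had a night estimate of -0.05 ± 0.18, and Nhp2 had -0.14 ± 0.16, the lowest of the 37 genes. Gar1 had 0.36 ± 0.24.

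In large subunit assembly, 1 of 10 genes passed the cosine and the night comparison, and 9 of 10 night estimates were above 0 (median 0.26), beside 10.6%, 3.2% (higher) and 48.6% of all features. At an unadjusted p under 0.05 there were 4 in each comparison (24.6% and 16% of all features), and DESeq2 called 1 (14.6%) and 2 (6.89%). The gene that passed was Nop16, with 10.7 and 9.87 CPM at CT0, 8.62 and 12.5 at CT4, 8.29 and 7.59 at CT8, 9.58 and 9.19 at CT12, 14.9 and 14.7 at CT16, 14.2 and 13.4 at CT20 and 13.4 and 16.9 at CT24. Unlike Ncl and Npm1 it was still low at CT12, and its pairs from CT16 to CT24 lay above all earlier libraries. The cosine peaked at 19.8 h (SE 0.841) with 0.83 from peak to trough (adjusted p = 0.0197), lost without either library of CT8 (adjusted p of 0.0654 and 0.0756), the CT8 pair (0.231) or the CT12 pair (0.0743). The night difference was 0.64 ± 0.14 (adjusted p = 0.0119), a fold of 1.56, lost without CT4 replicate 1 or CT8 replicate 2 (adjusted p from 0.0530 to 0.0779). Nop16 also had the lowest p for CT24 against CT0 among the 37 genes (0.56 on the log2 scale, unadjusted p = 0.0103).

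Noc3l, which works with Noc2l in early large subunit particles, had 2.94 and 1.94 CPM at CT0, 1.42 and 1.44 at CT4, 1.77 and 1.94 at CT8, 2.67 and 2.95 at CT12, 2.95 and 2.64 at CT16, 2.50 and 3.05 at CT20 and 3.29 and 3.07 at CT24. All 4 day libraries and CT0 replicate 2 lay below every library from CT12 to CT24. The night estimate was 0.78 ± 0.21, larger than that of Nop16 but on fewer counts (a mean of 121 per library), and did not pass (adjusted p = 0.0511). Among the PeBoW complex, a trio that acts in maturation of the large subunit rRNA, Bop1 had a night estimate of 0.26 ± 0.12 with no overlap of day (12.3 to 13.8 CPM) and night (15.1 to 16.3 CPM), Pes1 had 0.17 ± 0.14 and Wdr12 0.38 ± 0.22. The rRNA methyltransferase Nop2 had 0.53 ± 0.21 (adjusted p = 0.204), also with no overlap. The remaining genes of this role, Rrp1, Noc2l, Nip7 and Nle1, had estimates from -0.03 for Nip7 to 0.26 for Noc2l.

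In small subunit assembly, 0 of 10 genes passed the cosine or the night comparison, while 10 of 10 night estimates were above 0 (median 0.23). The shares of all features were 10.6%, 4.45% (either direction) and 48.6%. At an unadjusted p under 0.05 there were 2 in each comparison and DESeq2 called 1 in each, shares of 10 genes that are near those of all features given above. Rrp12, which acts in export and maturation of subunits, came closest. It had 11.2 and 5.95 CPM at CT0, 6.00 and 7.03 at CT4, 5.19 and 7.21 at CT8, 8.12 and 7.34 at CT12, 10.7 and 11.7 at CT16, 9.18 and 8.51 at CT20 and 9.02 and 6.69 at CT24. Night lay above day throughout (7.21 and 8.51 CPM at the closest), with the CT16 pair high and the mice at CT0 far apart. The night estimate was 0.65 ± 0.19 (adjusted p = 0.0636) and the cosine gave 0.76 at 18.0 h (adjusted p = 0.0545). The lowest estimate was that of Nop14, 0.03 ± 0.17, and the large scaffolds Utp20 and Heatr1 had 0.21 ± 0.15 and 0.26 ± 0.14. Nat10, an RNA acetyltransferase, had its fitted peak at 23.4 h, the latest of the 37 genes when counted from 0 h, with 0.46 from peak to trough (adjusted p = 0.272). With CDS counts alone its peak lay at 0.17 h.

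Tsr1, a factor of late small subunit particles, had a count from outside its reading frame. Of its 7517 reads, 2029 (27.0%) lay in the 3'UTR, where the other 36 genes had at most 1.61%. Srr, on the opposite strand, overlaps 1566 nt of the exons of Tsr1, and whether strand was used in counting is not given in the sources used here. Reads of both genes cannot be told apart there. The night estimate of Tsr1 was 0.40 ± 0.16 (adjusted p = 0.209) over the whole transcript and 0.68 (adjusted p = 0.0308) over the CDS alone. The overlap is longer than the 3'UTR of Tsr1 (934 nt), so part of it lies in the CDS. The CDS value is thus open to reads of Srr as well.

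**Figure D5:**
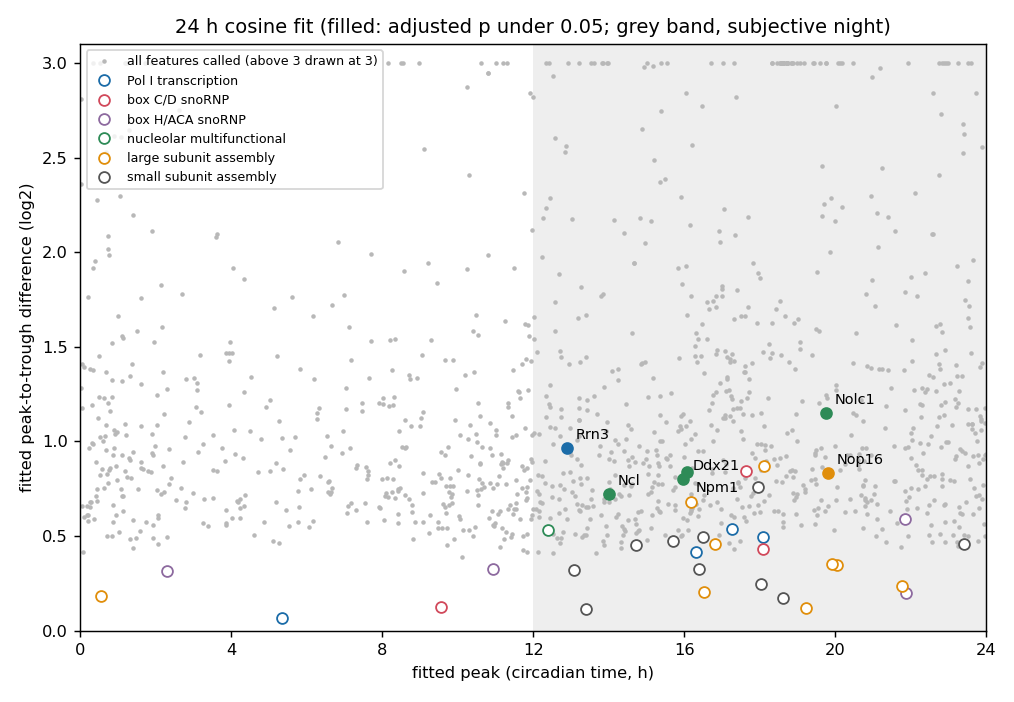
Fitted peak (circadian time, h) against peak-to-trough difference (log2) in the 24 h cosine fit; circles are the 37 genes by role, filled where the adjusted p is under 0.05, and grey points are all features that passed. The 6 filled circles lie between 12.9 and 19.8 h, and Nolc1 is highest at 1.15.

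Dusk (CT12) was compared with dawn (the mean of CT0 and CT24), which asks for the part of the cycle that the night and day windows leave out. Either direction passed in 7.04% of features, and in 2 of the 37 genes, Rrn3 and Ncl, both higher at CT12. Rrn3 differed by 1.19 on the log2 scale, a fold of 2.28 (adjusted p = 0.000778, up to 0.0223 without any 1 library), and Ncl by 0.71, a fold of 1.64 (adjusted p = 0.0162). The call of Ncl was lost without CT12 replicate 1 or CT24 replicate 1 (adjusted p from 0.0523 to 0.153). The estimate was above 0 in 21 of the 37 genes (56.8%, beside 49.7% of all features; median 0.05), from -0.63 for Nat10 (adjusted p = 0.0591) to that of Rrn3. This comparison depends on scaling: total-count scaling moved the median of all features by -0.60, left Rrn3 at 0.55 (adjusted p = 0.113) and Ncl at 0.12 (adjusted p = 0.732), and called 7 other members, all lower at CT12 (Nop16, Nop10, Gar1, Nhp2, Bop1, Nat10 and Nolc1). That scaling called 21.1% of all features, 74 of 2481 of them higher, so 7 of 37 is not above the background.

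CT24 and CT0 are the same circadian time 1 day apart. No feature passed by edgeR (583 at an unadjusted p under 0.05, among them 1 member, Nop16). DESeq2 called 4 features and 0 members, and the members' estimates ran from -0.50 for Wdr12 to 0.56 for Nop16. A test of any difference among the 7 times passed in 6.26% of features and in 5 members: Rrn3 (adjusted p = 0.0143), Nop16 (0.0237), Npm1 (0.0323), Nolc1 (0.0456) and Wdr43 (0.0473). Wdr43, a small subunit processome protein, was thus called here and not by the cosine. Left-out libraries brought this count to between 1 and 5, and Wdr43 and Nolc1 each lost the call without any 1 of 11 of the 14 libraries (adjusted p up to 0.181 and 0.175).

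Where on the transcripts the footprints lay was described by region. The median share of a member's counts in the CDS was 97.6%, beside 95.5% over all features, and in the 5'UTR 1.98%, beside 3.64%. Wdr12 had the highest 5'UTR share at 16.9%, with 3 upstream reading frames in its leader, counting each ATG with an in-frame stop as 1. Npm1 at 15.1% and Ncl at 12.1%, in which no upstream reading frame was found, followed. At least 1 upstream reading frame lay in 11 of the 36 members whose lengths matched the annotation (30.6%), beside 39.1% of tested genes. The balance of leader to CDS counts, as a log2 ratio, was tested for a 24 h cosine with limma in the 17 members with a mean of 10 or more counts over the libraries in both regions, so that single libraries can hold fewer. No member and no other of 5144 features passed (0 called, 0%), and at an unadjusted p under 0.05 there were 0 members and 247 features (4.80%).

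For the wider pathway, a list of 124 other ribosome biogenesis genes was counted in the same fits. The cosine passed in 2 of them (1.61%, beside 10.6% of all features), Riok2, a kinase of late small subunit particles (peak at 15.1 h, adjusted p = 0.0170), and Ftsj3, an rRNA methyltransferase (14.4 h, adjusted p = 0.0222). Las1l, which cuts the large subunit precursor, was next (adjusted p = 0.0694). The night comparison passed in 1 (3.2% of all features were called higher), Gtpbp4 (a GTPase of large subunit assembly, adjusted p = 0.0132), which was higher at night and is named after its value was seen, and the estimate was above 0 in 90 (72.6%) with a median of 0.10. For comparison, the 77 cytosolic ribosomal protein genes, whose products these factors assemble, had a median night difference of 1.04 with 77 of 77 above 0 and 69 (89.6%) passing, and 47 (61.0%) passed the cosine. Many of these genes are known to have processed copies elsewhere in the genome. The difference between these lists and the 37 genes was not tested. With mean log2 values scaled in 4 ways (TMM, total count, DESeq2 size factors and upper quartile), 74 to 108 of the 124 other factors and all 77 ribosomal protein genes were above 0, beside 42.1% to 67.8% of all features.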

How the data were processed

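Footprints of 14 mouse liver libraries were analysed from the raw read counts that the authors deposited for 28167 RefSeq transcripts, split into leader (5'UTR), CDS and trailer (3'UTR). Per the labels and methods, adapters were clipped, reads that aligned to rRNA with Bowtie2 (2.1.0.0) were removed, the rest were aligned to mm10, and exact matches with a single alignment were used for density profiles. SAMtools (0.1.19.0) and FastQC are also named. How reads shared by transcripts of 1 gene were counted is not given in the sources used here. The other values in the files are region lengths. The titles of the last pair hold CT00 in the name and CT24 in brackets, another label gives CT00, and CT24 was used. The labels also list a repeat sequencing of CT16 replicate 2, not analysed here on its own.

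The transcript with the highest mean count stood for a gene, its regions were added, and features averaging 10 or more counts in a library were kept. edgeR 4.0.16 (R 4.3.3; TMM, quasi-likelihood tests, Benjamini-Hochberg adjustment, threshold 0.05) tested a cosine of 24 h and contrasts in a model of 7 times. limma 3.58.1 tested the 5'UTR to CDS ratio (pseudocount 0.5). DESeq2 1.42.0 and a JTK_CYCLE-type rank test (lags every 2 h, Python 3.11.15) were alternatives, with other scalings, count minimums, regions, left-out libraries and blocks. With 2 mice per time, an SD rests on 2 values. In simulated data, edgeR called 122 of 200 genes with a cosine of 1 (log2, peak to trough) and 8 others of 11747, and 166 of 200 with a night difference of 1 and 7 others. The simulation gave all genes the same dispersion and held no outlier library, so these rates need not hold for the real libraries.

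The 37 members, their roles and the lists were chosen with earlier results of these data known. Values in all libraries are given for Ubtf, Polr1a, Fbl, Ncl, Npm1 and the 10 members with the lowest cosine p. The other members are given by night estimate, phase, amplitude, level or range, and Rrp9 and Bms1 only within counts. The cytosolic ribosomal protein genes were chosen by symbol after the data were seen. Marker lists of Kupffer cells, sinusoidal endothelium, cholangiocytes, lymphocytes, erythroid and proliferating cells gave 0, 0, 1, 0, 0 and 0 genes called by the cosine, stellate cells 0 of 5, hepatocytes 2 of 7 and pancreatic acinar cells 5 of 5 (1 of 5 lymphocyte markers was tested). The acinar markers summed to 2939 CPM in CT20 replicate 2 and to at most 58.0 CPM in any other library. Their cosine calls without that library are not given here. The night comparison called 1 stellate and 3 hepatocyte markers and 0 in the other cell type lists.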

Additional observations from a re-analysis of the deposited data

How the results depend on the processing

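The number of members called by the cosine (6) was 2 with total-count scaling (7.63% of all features), 3 without the CT4 pair (6.93%), 3 without the CT8 pair (6.26%) and 2 without the CT12 pair (5.83%), the pairs left out having been chosen after the data were seen. It was 1 with the rank test on TMM-scaled CPM (3.3%) and 0 on CPM of the total count (1.33%), where 7 and 7 members had an unadjusted p under 0.05, near the 16.5% and 17.4% of all features, and 4 to 7 without any 1 library. For the night comparison (4) it was 7 with the DESeq2 test (6.89% of all features), 2 with the leading letters of the description label as a block (3.36%) and 1 to 6 without any 1 library, and the number of members above 0 (32) was 29 to 34. For CT12 (2) it was 7 with total-count scaling (21.1%), 5 with the DESeq2 test (10.1%) and 1 to 3 without any 1 library. For any difference (5) it was 9, 8 and 3 with total-count scaling (12.2%), the DESeq2 test (12.5%) and the label block (4.68%), and 1 to 5 without any 1 library. CT24 against CT0 and the 5'UTR to CDS ratio stayed at 0 in members under every alternative run. No called member reversed. The causes were not tested. Over 21 pairs of times, the deviations of same-numbered libraries had a median correlation of 0.0348 (-0.0751 to 0.197), above 0.1 in 4. Every library came from another mouse, and whether same-numbered libraries shared a preparation was not tested. With the replicate block, 5 members passed the cosine (10.4% of all features; Npm1 did not, adjusted p = 0.0532), 5 the night comparison (4.65%; with Nop58, 0.0485), 3 CT12 (7.42%), 0 CT24 (0.0511%) and 4 any difference (6.83%). Halving the even counts of CT16 replicate 2 changed none of these counts. CDS densities moved by less than 1 SD with total-count scaling.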
